A study of Homo sapiens with 6 samples.

Results

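The MYC network is a small family of transcription factors, and its 10 listed genes, MYC, MYCN, MYCL, MAX, MXD1, MXD3, MXD4, MXI1, MNT and MLX, were followed here by gene symbol in RNA-seq tables of 16779 genes. All 10 had a row in every table. The tables came from 6 libraries of total RNA labelled A549, a cell line derived from a human lung adenocarcinoma. Of these, 3 were labelled wild-type control and 3 RN7SK knockout, with total counts of 16018260 to 19357144 per library. No treatment or time is named. The sources used here do not say how the knockout was made, whether its cells were 1 clone, or whether the libraries of a group came from separate cultures, so p-values measure only the spread between these libraries, which may be technical. RN7SK encodes 7SK, a small nuclear RNA that keeps the kinase P-TEFb, which releases paused RNA polymerase II, inactive, and the comparison asks which mRNAs differ between the groups.

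MAX is the centre of the network: MYC, MYCN and MYCL bind DNA as pairs with MAX and activate transcription, whereas the MXD proteins, MXI1 and MNT compete for MAX and repress the same sites through SIN3 and histone deacetylases. MLX joins the network from the side, since it pairs with MXD1, MXD4 and MNT and also with the glucose-responsive factors MLXIP (MondoA) and MLXIPL (ChREBP). All of these pairs recognise the E-box CACGTG and its close variants. MYC is an oncogene that drives ribosome production, metabolism and proliferation, and MYCL and MYCN are best known in neuroendocrine lung tumours and neuroblastoma.

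Some measurements bear on how far the labels can be followed. RN7SK had 0 rows in the tables, and the knockout itself was therefore not checked. CDKN2A and CDKN2B, which A549 cells are known to lack, had 2891 and 695 counts over the control libraries and 3 and 1 over the knockout libraries. Keratins KRT7, KRT8 and KRT18 were abundant in both groups, but EPCAM (0.530 and 0.446 CPM, counts scaled to a common library size, in control and knockout) and KRT19 were near 0 in both. Lung epithelial markers summed to 3300 to 3514 CPM in the control and 5975 to 6086 in the knockout libraries, and all 6 that could be tested were higher in the knockout. Nearly all of the sum was keratin (KRT7, KRT8 and KRT18), which is not particular to lung. Of the lung-specific markers, SFTPB had 0 counts, NKX2-1, SFTPC and SFTPD stayed below 0.5 CPM on average and NAPSA averaged 0.705 and 1.23 CPM. With gene lengths as an offset MUC1, another of the 6, did not pass (log2 fold change 1.05 on counts and -0.10 with the offset, edgeR adjusted p = 0.329). Endothelial markers summed to 161 to 173 CPM in the control against 4.14 to 4.80 in the knockout libraries. Nearly all of the control sum was ESAM and ENG, with PECAM1, VWF and TEK at 3 or fewer counts in the group, and all 3 tested members were lower. Neuroendocrine markers summed to 25.5 to 28.0 against 9.38 to 11.3, with SYP lower, CHGA and NCAM1 higher, and the defining factors NEUROD1 and INSM1 at 3 or fewer counts in both groups. Fibroblast and haematopoietic markers were higher in the knockout libraries, at 3.56 to 4.56 against 12.4 to 14.5 and at 34.2 to 37.7 against 53.6 to 58.1. Their part in the results below was not tested. Knockout and control below mean the labels of the libraries. Whether both groups are the same cell line was not tested. In this design, loss of RN7SK and any other difference between the groups, such as one of cell line, cannot be told apart. In bulk RNA, fewer cells of a type and less RNA per cell cannot be told apart.

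Promoter sequence is shown first, because the network's own binding letters occur in front of some of its genes. RefSeq promoter windows (GRCh38.p14, 250 bases before to 50 after a transcript start) were matched by symbol for 9 of the 10 members, all but MYC. CACGTG, which reads the same on both strands, was searched in each window. A gene with several windows counted as a match if any of them held CACGTG. The letters were present at 3 members, MNT, MXD4 and MLX. That is 33.3% of 9, against 12.6% of the 10443 tested genes with a window and 8.77% of all 27305 genes with a window. The 250 bases before the start of MNT, MXD4 and MLX are printed 5′ to 3′ on the gene's strand, with the E-box in capitals. They lie at chr17:2401061-2401310 (MNT, minus strand), chr4:2262110-2262359 (MXD4, minus strand) and chr17:42566850-42567099 (MLX, plus strand).
MNT: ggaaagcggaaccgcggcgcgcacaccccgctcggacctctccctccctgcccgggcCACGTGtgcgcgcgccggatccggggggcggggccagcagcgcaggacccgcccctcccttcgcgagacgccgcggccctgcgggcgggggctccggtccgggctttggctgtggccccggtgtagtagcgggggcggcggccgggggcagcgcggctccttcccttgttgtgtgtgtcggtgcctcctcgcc
MXD4: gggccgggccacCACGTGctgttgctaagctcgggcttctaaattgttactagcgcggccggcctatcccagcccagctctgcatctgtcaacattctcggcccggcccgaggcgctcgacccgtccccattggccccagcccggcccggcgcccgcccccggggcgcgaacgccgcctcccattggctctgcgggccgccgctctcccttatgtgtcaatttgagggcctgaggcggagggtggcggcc
MLX: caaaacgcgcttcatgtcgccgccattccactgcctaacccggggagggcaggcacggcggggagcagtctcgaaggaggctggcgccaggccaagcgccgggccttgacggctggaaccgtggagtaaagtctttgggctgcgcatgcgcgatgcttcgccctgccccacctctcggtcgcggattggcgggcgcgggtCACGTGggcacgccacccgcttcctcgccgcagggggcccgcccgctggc
The E-box begins 193 bases before the start of MNT, 238 before that of MXD4 and 50 before that of MLX. A match is a description of these letters and not a measured binding site. MAX, MXD1, MXD3, MXI1, MYCL and MYCN had no CACGTG in their windows.

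MYC, MYCL, MAX, MXD1, MXD3, MXD4, MXI1, MNT and MLX were higher in the libraries labelled knockout, from 1.15-fold for MAX to 4.54-fold for MYCL, and only MYCN was too low to test. In the edgeR quasi-likelihood test over 12929 genes, 9 of the 9 tested members passed an adjusted p of 0.05 upwards and 0 downwards. Of all tested genes, 85% passed in either direction, 42% higher and 43% lower, so passing the test by itself does not set a gene apart here. The libraries of the 2 groups did not overlap for any of the 9, with the knockout higher, as they did not for 42.4% of all tested genes. The median log2 fold change was 0.64 over the 9 members and -0.01 over all tested genes. Values below are CPM, given for replicates 1 to 3, then as mean ± SD with n = 3 per group, and the log2 fold change ± SE is from the same edgeR fit with Benjamini-Hochberg adjustment over all tested genes.

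**Figure D1:**
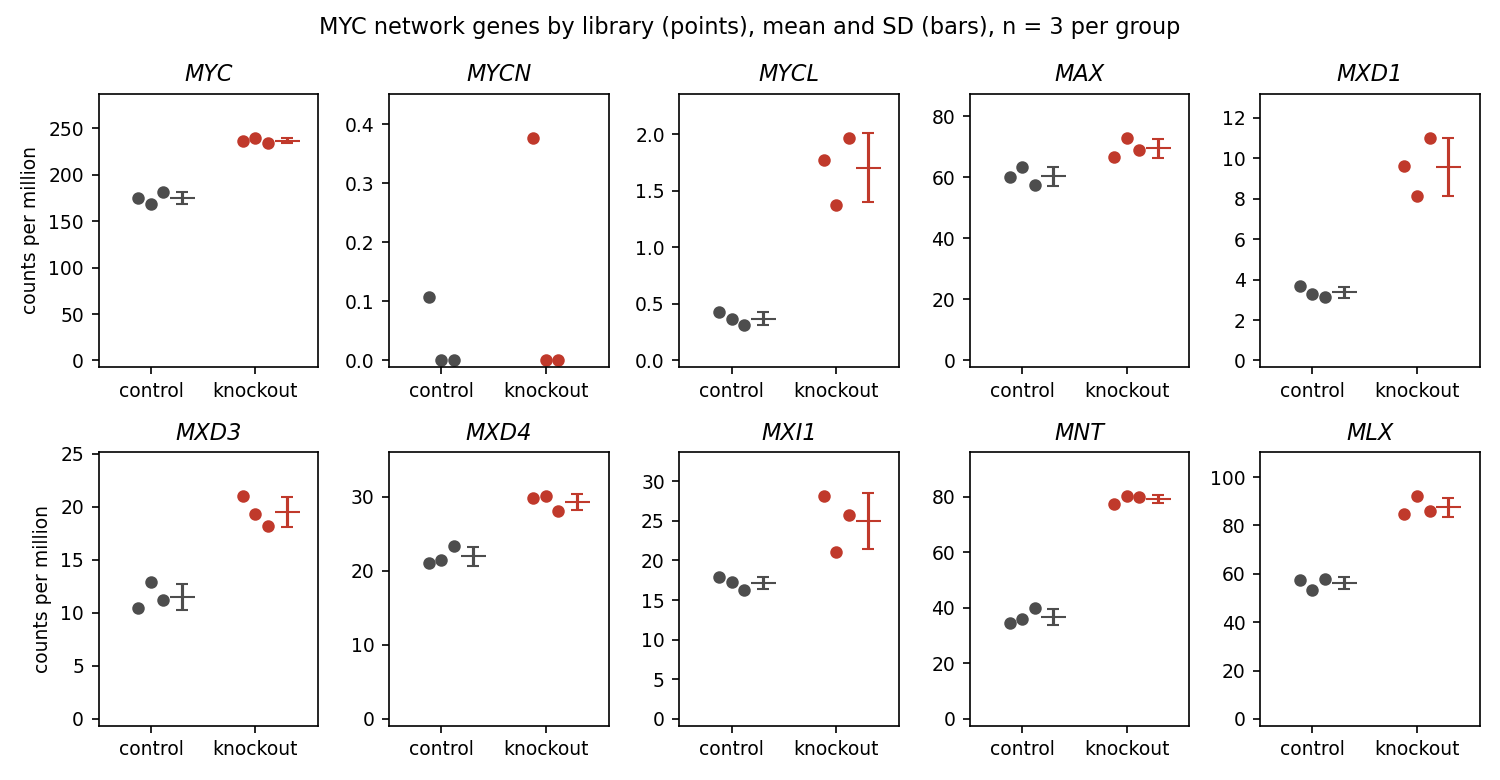
CPM (vertical axis, linear from 0) of the 10 network genes in each library, with control in grey and knockout in red; bars are mean and SD of 3 libraries and are left out for MYCN, which had 0 counts in 4 of 6 libraries. In every panel except that of MYCN the lowest knockout library lies above the highest control library.

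MYC itself, the activator that most cells rely on, was moderately higher. MYC (chromosome 8, 127735434 to 127742951) had 175.3, 167.9 and 180.9 CPM in the control libraries and 235.8, 239.4 and 234.3 in the knockout libraries. The knockout libraries lay close together and all above the control. Means were 174.7 ± 6.52 and 236.5 ± 2.62 CPM, a 1.35-fold difference (log2 fold change 0.44 ± 0.04, edgeR adjusted p = 4.86e-11). Of all tested genes, 32.3% had a larger log2 fold change than MYC.

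MYCL (chromosome 1, 39895428 to 39901917), the paralog first found in small cell lung cancer, was expressed at a very low level. It had 8, 7 and 6 counts in control and 33, 23 and 32 in knockout libraries, or 0.371 ± 0.059 and 1.71 ± 0.303 CPM. The fitted difference was 4.54-fold (log2 fold change 2.18 ± 0.35, edgeR adjusted p = 8.33e-07), and the ratio of the summed counts was 4.61 with a 95% counting interval of 2.84 to 7.81. The groups did not overlap, and every library of either stood below 2 CPM.

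MYCN (chromosome 2, 15940550 to 15947004) had 2, 0 and 0 counts in control and 7, 0 and 0 in knockout libraries. The counts of each group thus came from 1 library. The ratio of the summed counts was 3.85 with a 95% counting interval of 0.733 to 38.0, so no difference was detectable at this depth.

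MAX (chromosome 14, 65006101 to 65102695), the shared partner, changed least of the 9. Its levels were 60.1, 63.5 and 57.3 CPM in control and 66.6, 72.9 and 68.9 in knockout libraries. The groups did not overlap, but knockout replicate 1 stood only just above control replicate 2. Means of 60.3 ± 3.09 and 69.5 ± 3.17 CPM gave a 1.15-fold difference (log2 fold change 0.20 ± 0.06, edgeR adjusted p = 0.00154).

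The repressors covered a wide range of change. MNT (chromosome 17, 2384073 to 2401060), a broadly expressed repressor that pairs with MAX or MLX, had 34.5, 36.0 and 40.0 CPM in control and 77.3, 80.0 and 79.9 in knockout libraries. It was 2.14-fold higher, with a log2 fold change of 1.10 ± 0.06 and the smallest p of the 9 members (edgeR adjusted p = 6.92e-18). Over all tested genes, 19.5% passed the test and were at least 2-fold higher, as MNT, MXD1 and MYCL were. MNT exons share 1065 bases with an antisense gene that has no row in the tables, and the part of such reads in the MNT counts was not tested.

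MXD1 (chromosome 2, 69915109 to 69942945), a repressor induced when many cells differentiate, had 3.67, 3.30 and 3.14 CPM in control and 9.63, 8.13 and 11.0 in knockout libraries. Means were 3.37 ± 0.275 and 9.59 ± 1.44 CPM, a 2.84-fold difference (log2 fold change 1.51 ± 0.15, edgeR adjusted p = 3.22e-11). The groups did not overlap, and its knockout libraries were spread more widely than its control libraries. MXD1 exons share 237 bases with SNRNP27 on the same strand, which was lower in the knockout libraries.

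MXD3 (chromosome 5, 177305499 to 177312752), a member known for expression in dividing cells, had 10.4, 12.9 and 11.2 CPM in control and 21.0, 19.4 and 18.1 in knockout libraries. The difference was 1.70-fold (log2 fold change 0.76 ± 0.10, edgeR adjusted p = 9.75e-09). In the GENCODE release 29 annotation, MXD3 exons share 926 bases with RAB24 on the same strand and 1158 with PRELID1 on the other, together a large part of its 5154 exon bases. The lengths implied by the deposited FPKM values were shorter, 3161 bases for the control tables and 2764 for the knockout tables. The overlap within the gene model that was counted is therefore not known. RAB24 itself was higher (21.6 ± 0.694 to 46.2 ± 0.669 CPM) and PRELID1 lower (254.5 ± 17.3 to 206.4 ± 3.13 CPM). The strand setting of the counting is not given in the sources used here, and the part of shared reads in the MXD3 result was not tested.

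MXI1 (chromosome 10, 110207605 to 110287365), a repressor closely related to MXD1, had 17.9, 17.3 and 16.3 CPM in control and 28.1, 21.1 and 25.8 in knockout libraries. Knockout replicate 2 was the lowest of its group and still above all control libraries. The difference was 1.46-fold (log2 fold change 0.55 ± 0.09, edgeR adjusted p = 1.86e-06).

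MXD4 (chromosome 4, 2247432 to 2262109), which represses as a pair with MAX or MLX, had 21.1, 21.5 and 23.4 CPM in control and 29.8, 30.1 and 28.0 in knockout libraries. On counts it was 1.33-fold higher (log2 fold change 0.42 ± 0.07, edgeR adjusted p = 5.02e-06). The size of this difference depends on the gene model: the deposited FPKM values imply 5411 bases for the control tables and 3871 for the knockout tables, and with these lengths as an offset the difference was 1.86-fold (log2 fold change 0.90 ± 0.07, edgeR adjusted p = 4.08e-13).

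MLX (chromosome 17, 42567100 to 42573203), the link to the glucose-responsive factors, had 57.4, 53.5 and 58.0 CPM in control and 84.7, 92.0 and 85.9 in knockout libraries. The groups stood well apart, and the difference was 1.55-fold (log2 fold change 0.64 ± 0.06, edgeR adjusted p = 1.58e-12). MLX exons share 770 bases with PSMC3IP on the other strand, and PSMC3IP was lower in the knockout libraries (38.8 ± 3.84 to 23.8 ± 1.95 CPM). Whether reads were exchanged between them was not tested.

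**Figure D2:**
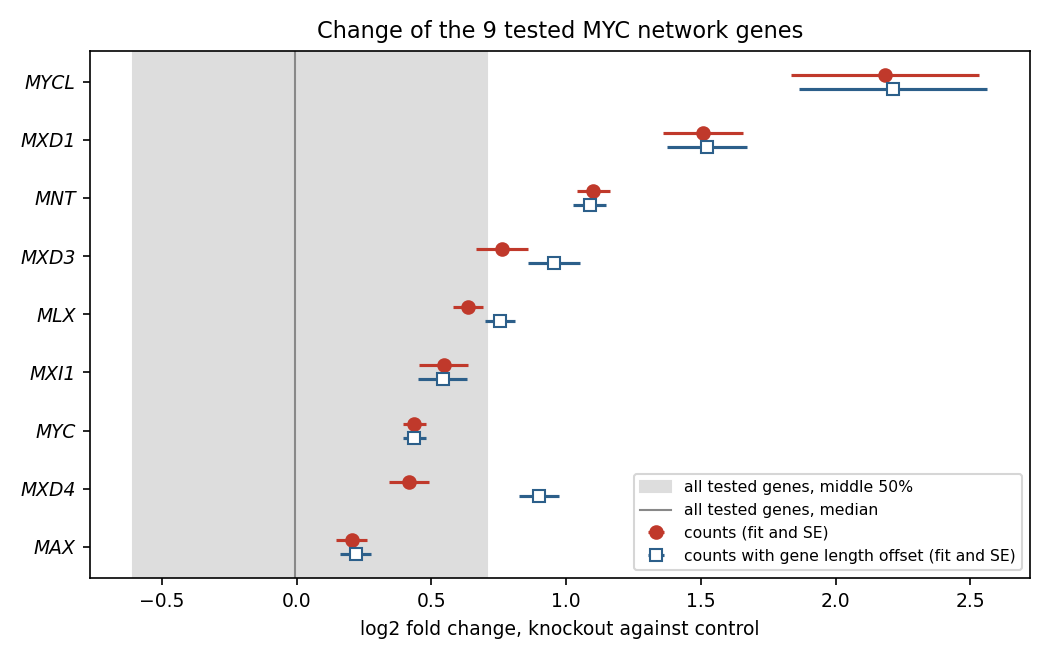
Log2 fold change (horizontal axis) of the 9 tested members, knockout against control, from counts (red) and with the recovered gene lengths as an offset (blue), with SE bars; the grey band and line are the middle 50% (-0.61 to 0.71) and median of all tested genes. MYCL, MXD1, MNT and MXD3 lie to the right of the band on counts, and MXD4 moves from 0.42 to 0.90 with the offset.

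Gene lengths were a limit for some members only. The lengths recovered from the tables were 4518 bases for MYC in both groups and differed by -2.06% to 0.91% for MXI1, MNT, MAX, MXD1 and MYCL. The length in the knockout tables differed from that in the control tables by -12.6% for MXD3 (3161 and 2764 bases), by -7.88% for MLX (2562 and 2360 bases) and by -28.5% for MXD4. For MYCN, which was too low to test, the lengths were 3038 and 2613 bases (-14.0%). With the lengths as an offset all 9 tested members passed upwards, MXD3 at 1.94-fold and MLX at 1.69-fold.

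Compared per length, as deposited FPKM (counts scaled to gene length and library depth), the order of the first 3 was the same in both groups. MYC led with control and knockout means of 37.6 ± 1.39 and 51.9 ± 0.378 FPKM, followed by MLX (21.4 ± 0.942 and 36.8 ± 1.54) and MAX (18.3 ± 0.943 and 21.7 ± 0.959). The libraries of these neighbours did not overlap in either group. In the control, MXI1 (4.36 ± 0.214), MXD4 (3.95 ± 0.216), MNT (3.94 ± 0.297) and MXD3 (3.54 ± 0.380) formed a run in which each overlapped the next. In the knockout group, MNT stood at the head of the repressors at 8.54 ± 0.190 FPKM, clear of MXD4 (7.51 ± 0.241). MXD4 overlapped MXD3 (6.99 ± 0.481), which in turn overlapped MXI1 (6.45 ± 0.927). The lengths behind these values were shorter in the knockout than in the control tables for MXD4 (3871 against 5411 bases) and MXD3 (2764 against 3161). How far the order of MXD4, MXD3 and MXI1 depends on these lengths was not tested. MXD1 was below these at 0.584 ± 0.0497 and 1.71 ± 0.267 FPKM, and MYCL (0.0729 and 0.349) and MYCN were lowest.

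The balance between opposing partners of MAX is described per library, without a test, since it is a sum over chosen genes. Summed FPKM of the 5 repressors was 15.9 to 16.6 in the control and 30.1 to 32.4 in the knockout libraries. That of the 3 activators was 36.2 to 38.9 and 52.1 to 52.6, nearly all of it MYC. The ratio of repressors to activators averaged 0.435 ± 0.0215 in control and 0.597 ± 0.0251 in knockout libraries (n = 3 each), and the libraries of the groups did not overlap. With the control lengths used for both groups, the knockout ratio was 0.540 ± 0.0245. MAX relative to the sum of these repressors and activators averaged 0.338 ± 0.0258 in control and 0.259 ± 0.0143 in knockout libraries, again without overlap. MGA, which also pairs with MAX, is not a listed member and is in none of these sums. It had 99.7 ± 6.73 CPM in control and 89.9 ± 1.71 in knockout libraries, at lengths of 12631 and 12011 bases. How far including MGA would change these ratios was not tested. MYC made up 40.1% ± 0.942 of the summed FPKM of the 10 genes in control and 36.6% ± 0.152 in knockout libraries, while its own level was higher in the latter. The length of MYC was the same in both groups, but those of MLX, MXD3 and MXD4 were shorter in the knockout tables. How far the MYC share and the MAX ratio depend on these lengths was not tested.

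**Figure D3:**
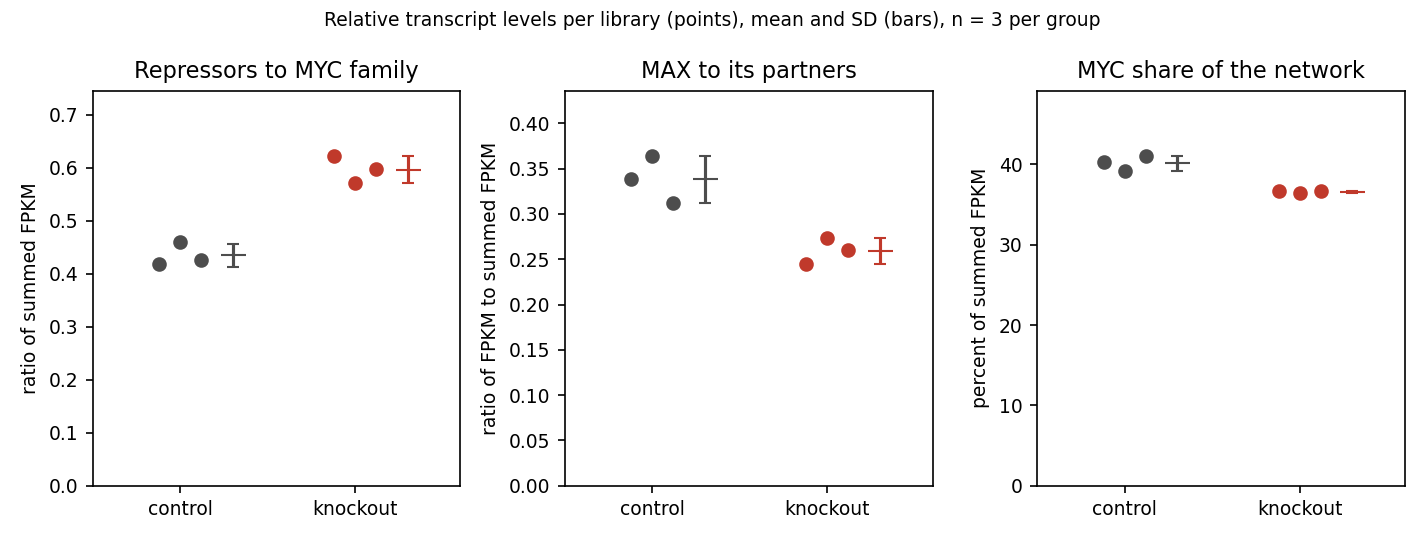
Ratio of summed repressor to summed MYC family FPKM, ratio of MAX FPKM to the summed FPKM of its partners among the 10 genes (without MGA), and MYC as a percentage of the summed FPKM of all 10 genes (vertical axes, linear from 0), for each library, with mean and SD of 3 libraries. The first is higher, and the MAX ratio and MYC percentage are lower, in all knockout libraries than in any control library. The FPKM of each group rest on its own gene lengths, shorter in the knockout tables for MLX, MXD3 and MXD4.

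By a fixed rule, the genes whose profile was nearest to that of MYC were named, over 6 libraries, among the 10773 genes that averaged 5 CPM or more. The measure was the Euclidean distance between log2 CPM profiles, each taken relative to its own mean. The nearest were UBAP2 (distance 0.0329), USP40 (0.0403), ST3GAL1 (0.0495), WIPI2 (0.0509) and CENPB (0.0524), with Pearson r of 0.996 to 0.998. Since the 6 points fall into the 2 groups, this likeness is mostly a group difference of like size, with log2 fold changes of 0.43 to 0.45 on counts. With the length offset these were 0.27 for USP40 and 0.40 to 0.59 for the others.

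The genes around the network are given list by list. Among all tested genes, 42% were higher and 43% lower, with a median log2 fold change of -0.01. Of 10 other network factors and corepressors, 3 were higher, 6 lower and 1 did not pass (median log2 fold change -0.21, mean 0.11). MLXIPL, the carbohydrate-responsive partner of MLX, went from 2.05 ± 0.444 to 50.3 ± 1.53 CPM, a 24.5-fold difference and the source of the positive mean. Its relative MLXIP had 85.8 ± 1.45 and 85.1 ± 4.62 CPM and did not pass (edgeR adjusted p = 0.829). The corepressor scaffolds differed in direction: SIN3A was 1.76-fold higher and SIN3B 2.10-fold lower (70.5 ± 4.19 to 33.7 ± 1.99 CPM). The deacetylase HDAC1 was 1.83-fold lower, and SMARCA4, the ATPase of the SWI/SNF remodeller, was 3.24-fold lower (45.4 ± 4.16 to 13.99 ± 0.739 CPM). MGA, which pairs with MAX, and ZBTB17 (MIZ1), through which MYC represses, had log2 fold changes of -0.15 and -0.27; MGA did not pass with the length offset (edgeR adjusted p = 0.18). SIN3A, MLXIP, MGA and ZBTB17, and below TRRAP and FBXW7, were named after their values were seen.

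Of 10 coactivators of MYC, 5 were higher, 3 lower and 2 did not pass (median log2 fold change 0.17). The shares over all tested genes were 42% higher and 43% lower. The acetyltransferases KAT5 and KAT2A were 1.72-fold and 1.51-fold higher, while WDR5, a chromatin anchor of MYC, and the ATPase RUVBL2 were 1.63-fold and 1.65-fold lower. TRRAP, the large scaffold of these acetyltransferases, had 190.5 ± 33.5 and 196.3 ± 4.56 CPM and did not pass (edgeR adjusted p = 0.798).

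Of 17 genes that set the stability of MYC protein, 4 were higher, 9 lower and 4 did not pass (median log2 fold change -0.26). All tested genes were 42% higher and 43% lower. SKP2, a ubiquitin ligase subunit for MYC, fell from 70.9 ± 3.21 to 19.0 ± 0.150 CPM, a 3.74-fold difference. PIM1, a kinase that phosphorylates MYC, rose 3.79-fold from 15.8 ± 1.53 to 60.1 ± 0.811 CPM. The ligase STUB1 was 1.75-fold lower. FBXW7, the main MYC degron reader, was lower on counts (log2 fold change -0.48) but did not pass with the length offset (0.13, edgeR adjusted p = 0.197), where its lengths of 8854 and 5818 bases enter. With that offset, and on log2(FPKM + 0.1), 7 of the 17 were higher and 8 lower.

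Among 18 regulators of MYC transcription and mRNA, 6 were higher, 9 lower and 3 did not pass (median log2 fold change -0.16). Over all tested genes, 42% were higher and 43% lower. The m6A readers of the IGF2BP family, which stabilise MYC mRNA, differed in direction. IGF2BP2 was 7.24-fold lower (80.6 ± 3.15 to 11.1 ± 1.12 CPM) and IGF2BP3 1.84-fold lower, whereas IGF2BP1 was 1.30-fold higher (116 ± 9.89 to 151 ± 1.55 CPM). For IGF2BP3 the log2 fold change was -0.88 on counts and -0.41 when lengths were an offset. The mRNA-binding protein ELAVL1 (HuR) was 1.43-fold lower. TCF7L2, the Wnt effector that acts on the MYC gene, was 2.71-fold higher (15.4 ± 2.33 to 41.8 ± 0.773 CPM). Its relative TCF7 was 1.31-fold higher, LEF1 was 3.24-fold lower (7.31 ± 0.141 to 2.27 ± 0.428 CPM), and their coactivator beta-catenin, CTNNB1, was 1.27-fold lower. IGF2BP1, TCF7, LEF1 and CTNNB1 were named after their values were seen.

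MYC-induced target genes were mostly lower in the libraries labelled knockout, where MYC itself was higher. Of 43 tested, 8 were higher, 31 lower and 4 did not pass, with a median log2 fold change of -0.52 against -0.01 for all tested genes, of which 43% were lower. HK2, a hexokinase, was 20.5-fold lower (39.1 ± 2.81 to 1.89 ± 0.595 CPM), and TERT, the catalytic subunit of telomerase, was 11.5-fold lower (23.5 ± 2.05 to 2.05 ± 0.402 CPM). The nucleolar genes GNL3 and NCL were 2.21-fold and 1.77-fold lower, and LDHA, lactate dehydrogenase A, 1.76-fold lower. Against this, APEX1, a DNA repair endonuclease, and AIMP2, a scaffold of tRNA synthetases, were 2.01-fold and 2.21-fold higher, and CDK4 1.28-fold higher. PTMA, prothymosin alpha, was 2.14-fold lower on counts but higher with the length offset (log2 fold change 0.25), where its lengths of 3114 and 1218 bases enter. On log2(FPKM + 0.1), 14 of the 43 were higher and 26 lower, and with the length offset 12 and 27. NCL, LDHA, AIMP2, APEX1 and CDK4 were named after their values were seen.

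The E-box was common in front of these targets: 21 of the 38 with a RefSeq window held CACGTG, or 55.3%, against 12.6% of the tested genes with a window. Of the 21, 5 were higher and 14 lower (median log2 fold change -0.58), and of the 17 without it 1 was higher and 14 lower (median -0.52). With the length offset, 7 of the 21 were higher and 13 lower (median -0.47), and 3 of the 17 were higher and 11 lower (median -0.44). Between these fits EIF4E, the cap-binding protein, turned from a log2 fold change of -0.43 to 1.58 (lengths of 12096 and 3002 bases), and NOP16, a nucleolar protein, from -0.37 to 0.54 (1837 and 979 bases). EIF4E and NOP16 were named after their values were seen. The difference between targets with and without the E-box letters was not tested. Among all tested genes with a window, it was found in 13.9% of those higher and 11.4% of those lower in the knockout libraries.

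Of 12 targets that MYC represses, 7 were higher and 5 lower, with a median log2 fold change of 0.50 and a mean of -0.39. Over all tested genes, 42% were higher and 43% lower, with a median of -0.01. The mean is negative because of CDKN2B, whose 695 control counts faced 1 knockout count. BTG1, an antiproliferative gene, was 3.72-fold higher (30.4 ± 2.38 to 113.0 ± 5.42 CPM) and CEBPA 2.97-fold higher. THBS1, the antiangiogenic thrombospondin, was 9.67-fold lower (395.1 ± 42.8 to 40.8 ± 1.71 CPM), and cyclin D1, CCND1, was 1.95-fold lower. With the length offset 8 were higher and 4 lower. GADD45B turned from a log2 fold change of -0.47 on counts to 0.33 with the offset (lengths of 2383 and 1371 bases). CEBPA and GADD45B were named after their values were seen.

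Among 12 genes known to respond to MLX with MLXIP or MLXIPL, 10 could be tested. Of these, 9 were higher and 1, HK2, lower, with a median log2 fold change of 1.37. Over all tested genes, 42% were higher and 43% lower, with a median of -0.01. PKLR, the pyruvate kinase gene of liver and red cells and a classic MLXIPL target, had 0 counts in all 6 libraries, which allows up to 0.185 CPM in a library. GPD1 was too low to test (0.160 ± 0.109 and 0.628 ± 0.204 CPM). PDK4, which restrains pyruvate oxidation, was 10.9-fold higher (15.4 ± 2.38 to 168.0 ± 3.16 CPM). The fatty acid genes SCD, ELOVL6 and FASN were 6.52-fold, 4.60-fold and 2.35-fold higher. TXNIP and ARRDC4, the arrestins most used as readouts of MLXIP, were low in both groups, at 0.636 ± 0.147 and 2.46 ± 0.195 CPM and at 1.73 ± 0.055 and 4.17 ± 0.421 CPM, and both passed upwards. FASN, TXNIP, ARRDC4, PKLR and GPD1 were named after their values were seen. Lipid synthesis genes respond to other factors too, and the list does not separate them.

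**Figure D4:**
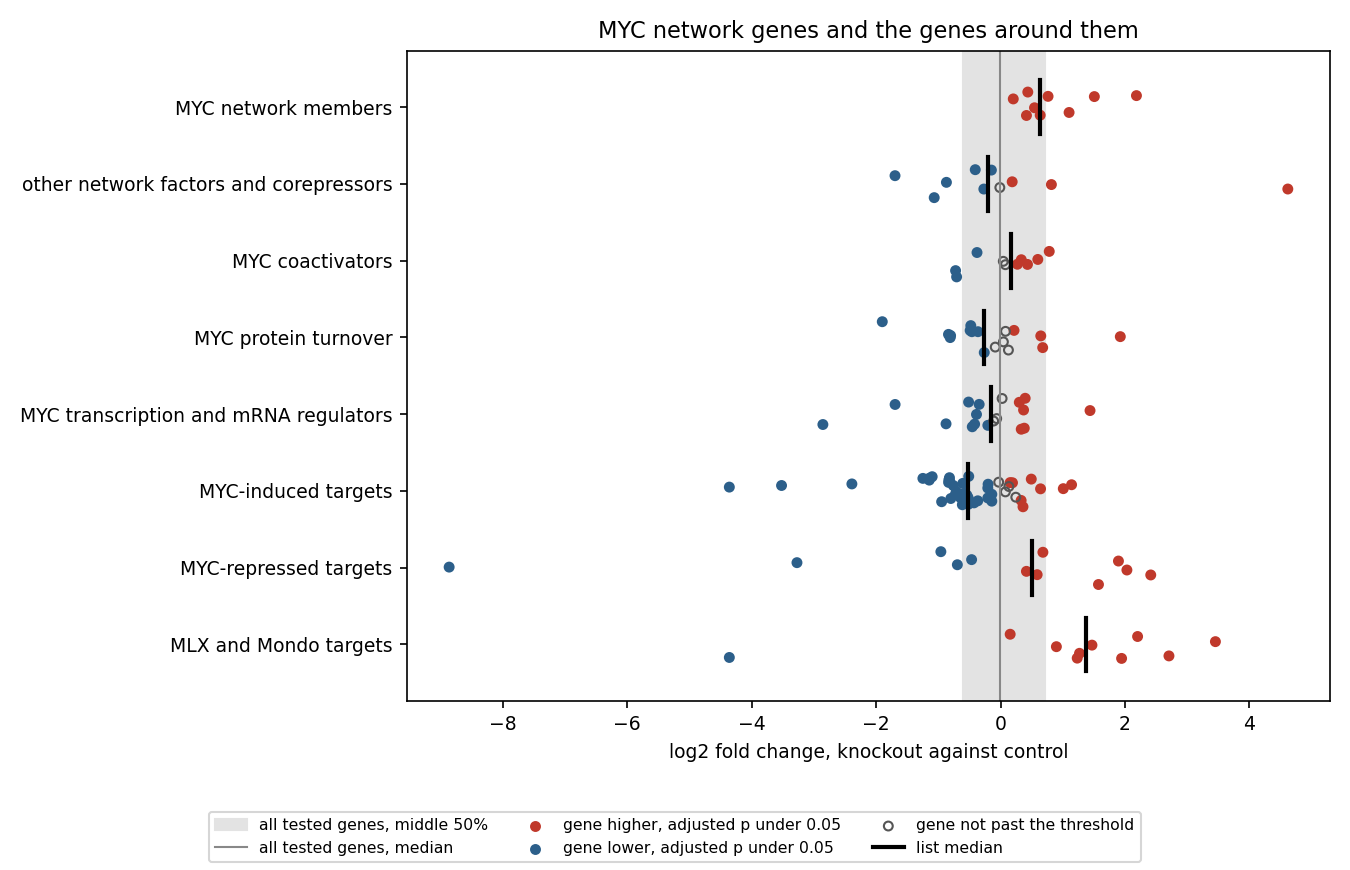
Log2 fold change (horizontal axis, edgeR, knockout against control) of each tested gene in the network and in 7 lists around it; filled points passed an adjusted p of 0.05, open points did not, and black bars are list medians. The network genes all lie above 0, MYC-induced targets have a median of -0.52, and MLX and Mondo targets a median of 1.37.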

How the data were processed

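RNA-seq read counts were analysed for 6 libraries, 3 per group. Per the labels' protocols, TRIzol extracts of total RNA went into an mRNA-Seq library kit. GRCh38, HISAT2 2.2.1.0, Trimmomatic 0.36 and FastQC 0.11.5 are named in the submitters' processing notes. For the counter, its annotation and strand setting, and any gene filter: not given in the sources used here. The authors deposited raw counts per gene symbol and FPKM. Total counts were 16018260 to 19357144 per library; counting intervals are 95% and exact and cover counting error only. The gene length behind each FPKM, recovered from the count, the FPKM and the library depth, was whole within 0.05 bases in 100% of values, but only 32.3% of 14582 genes agreed within 1% between the groups.

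Genes were kept by filterByExpr, scaled by trimmed mean of M values and tested two-sided with edgeR 4.0.16 (glmQLFit robust, glmQLFTest; R 4.3.3), with Benjamini-Hochberg adjustment. On simulated counts, 200 genes were changed, and calls were made among 12781 genes. Of the genes changed by 0.5 (log2), 92.4% were called, as were 95.4% by 1 and 100% by 2. Of the calls, 2.08% were false. These shares hold for equal spread in both groups and for few changed genes. In the libraries, 85% of tested genes passed in either direction. The biological coefficient of variation was 0.0559 among control and 0.0245 among knockout libraries. How far the shares carry over to these libraries was not tested. Replicate libraries differed by more than sampling noise, with chi-square over its degrees of freedom at 1.74 to 8.30. Alternatives were other scalings and filters, DESeq2 1.42.0, limma 3.58.1 (voom, and on log2(FPKM + 0.1) and log2(FPKM + 1)), lengths as an offset, a replicate block, left-out libraries, a stricter threshold and glmTreat.

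The members and lists were chosen with earlier results of these data known. Named genes were the members, up to 4 genes of each list by smallest p, and the 5 genes nearest to MYC; some of these are not reported here. Coordinates and promoters are from RefSeq (GRCh38.p14).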

Additional observations from a re-analysis of the deposited data

How the results depend on the processing

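All 9 tested members kept their direction in each of their alternatives, and 9 passed upwards and 0 downwards in every setting except 2: 8 with at least 10 counts in each library, where MYCL was not tested, and 5 by glmTreat, which asks for a log2 fold change beyond 0.5 and dropped MYC, MAX, MXD4 and MXI1. By glmTreat, the genes called over all tested were 3470 higher and 3193 lower, and those of the 7 lists 24 higher and 35 lower, against 42 and 63 in the main test; a fold threshold calls fewer genes by construction. It also left MYC-induced targets at 3 higher and 19 lower, turnover genes at 4 lower, regulators of MYC transcription and mRNA at 1 higher and 3 lower, coactivators at 2 higher and other network factors at 3 lower. MYC-induced targets higher numbered 14 on either FPKM scale against 8, and turnover genes higher 7 against 4 on both FPKM scales, with the offset and with upper quartile scaling. Leaving out 1 library at a time, 9 members passed, 5266 to 5534 of all genes were higher and 5420 to 5598 lower, and the list genes were 42 to 44 higher and 62 to 66 lower. MAX had its largest adjusted p outside glmTreat, 0.0217, without knockout replicate 2. The log2 ratio of repressors to activators, knockout over control, was 0.46, or 0.31 with the control lengths in both groups, 0.39 on CPM, and 0.43 to 0.50 leaving out 1 library. PTMA reversed wherever lengths enter: 0.25 with the offset, 0.28 on log2(FPKM + 0.1) and 0.28 on log2(FPKM + 1). MXD1 and MYCL had log2 fold changes of 0.77 and 0.33 on log2(FPKM + 1), where the added 1 shrinks low genes. Replicate numbers did not pair the libraries (same-numbered deviations correlated at 0.018, -0.0248 and -0.00775); with a replicate block, 9 members, 5397 higher and 5513 lower genes were called. Upper quartile scaling moved the median of all tested genes from -0.01 to 0.08. Depth limits MYCN, and the count of 21 for MYCL in the control.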
